A study of Mus musculus with 3 samples.

Results

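Isolated hotspots are described here: the autosomal meiotic DNA break sites of the table that stand alone on their stretch of chromosome. A site qualified when it was assigned to the CAST or the HUM variant of PRDM9 and when the previous and the next site, of whatever class, both lay at least 200 kb away. The rule used positions and the assignment only, no signal. It found 696 sites among 24586 in all, or 3.21% of the autosomal CAST and HUM sites (95% exact interval 2.98% to 3.46%). Of the 696, 464 were CAST sites and 232 HUM sites. The remaining 20957 autosomal CAST and HUM sites (11908 CAST and 9049 HUM) are called the other sites below.

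The animals were males of the first cross between C57BL/6J (B6) and CAST/EiJ (CAST), inbred mouse strains whose many base differences let reads be assigned to a homologue. The animals carried the Prdm9 genotype HUM/CAST, that is a humanized allele together with the CAST allele. Whole testis was used, so the meiotic cells were not separated from other cells. DMC1 ChIP-seq came from 1 male of 10 weeks and H3K4me3 ChIP-seq on micrococcal nuclease digested chromatin from 1 adult male. A further MNase-seq library was not analysed here.

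PRDM9 is a zinc-finger protein of meiotic cells that binds DNA motifs and trimethylates histone H3 lysine 4 (H3K4me3) on the nucleosomes beside them. SPO11 and its partners then cut DNA at some of these places, and the recombinase DMC1 coats the single-stranded ends until they are repaired on the homologous chromosome. Each PRDM9 variant reads another motif, so a hybrid with 2 variants has 2 sets of hotspots, and a base difference within a motif can leave a hotspot active on 1 homologue only.

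Most isolated sites lay far from any annotated gene start, at a median distance of 107 kb against 28.8 kb for other sites. The annotated starts lack those of some protein-coding genes, so true distances can be shorter. The CAST site at chromosome 14 position 65453067 had 13 protein-coding genes within 500 kb, but its nearest annotated start was 1706 kb away. Of the 676 isolated sites with an annotated start distance, 3 had their centre within 1 kb of one. The 250 bases before those 3 starts are printed 5′ to 3′ on the strand of the gene, from RefSeq on GRCm38.p6 (mm10), with the last 10 bases before the start in capitals, because these are the promoters next to which an isolated break site was found.
I830077J02Rik: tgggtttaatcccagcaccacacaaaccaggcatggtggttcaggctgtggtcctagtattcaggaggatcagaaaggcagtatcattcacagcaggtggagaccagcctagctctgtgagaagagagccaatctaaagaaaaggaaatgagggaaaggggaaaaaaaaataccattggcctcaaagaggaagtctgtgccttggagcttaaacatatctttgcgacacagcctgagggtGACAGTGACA
Gm51582: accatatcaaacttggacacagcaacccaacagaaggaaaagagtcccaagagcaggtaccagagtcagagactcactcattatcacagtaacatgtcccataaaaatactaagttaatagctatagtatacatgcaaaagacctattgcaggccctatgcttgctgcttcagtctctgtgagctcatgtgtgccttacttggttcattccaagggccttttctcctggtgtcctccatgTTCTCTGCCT
Gm40579: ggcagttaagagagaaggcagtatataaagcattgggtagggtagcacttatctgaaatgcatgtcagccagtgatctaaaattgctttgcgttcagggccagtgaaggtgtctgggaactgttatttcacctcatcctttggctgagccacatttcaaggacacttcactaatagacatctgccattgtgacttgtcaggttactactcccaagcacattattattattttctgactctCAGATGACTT
The first window is chr3:105932665-105932914 on the minus strand. The DMC1 centre lay 95 bases into the gene, at chromosome 3 position 105932569. That CAST site was the second in DMC1 signal of all isolated sites (698, with H3K4me3 32.0). It was almost wholly on the B6 homologue, with a B6 share of 0.997 in DMC1 and 0.980 in H3K4me3. The B6 share is the fraction of a signal that came from the B6 homologue. The second window is chr8:81338976-81339225 on the minus strand, and its site lay 720 bases before the start at position 81339695, with DMC1 64.4, H3K4me3 13.3 and B6 shares of 0.528 and 0.545. The third window is chr9:109772763-109773012 on the plus strand. Its site lay 466 bases past the start at position 109773479, with DMC1 33.8 and H3K4me3 19.9. It overlapped a PRDM9-independent H3K4me3 peak, as the authors called them, and its shares went apart, 0.0392 in DMC1 and 0.724 in H3K4me3. GC content was 47.6%, 44.4% and 42.4% in the 3 windows, against a median of 52.4% over 32619 annotated starts.

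Isolated sites had less DMC1 than other sites of the same PRDM9 variant, while their median H3K4me3 was close to that of other sites. At isolated CAST sites the DMC1 signal, in the authors' units, ran from 7.63 to 704 with a median of 70.5 (95% interval 61.6 to 79.7), against a median of 83.5 (80.7 to 86.6) at other CAST sites. At isolated HUM sites the median DMC1 was 38.0 (31.5 to 44.1), against 52.4 (50.7 to 54.2) at other HUM sites. The difference of medians on the log2 scale was -0.24 for CAST sites (-0.44 to -0.07) and -0.47 for HUM sites (-0.73 to -0.25). The direction was the same on 13 of 19 autosomes for CAST and on 17 of 19 for HUM. With both variants together the difference was -0.25 (-0.49 to -0.06). It was -0.11 (-0.26 to 0.05) with 150 kb in place of 200 kb as the distance, and -0.24 (-0.52 to 0.12) with 300 kb, and -0.19 (-0.45 to 0.01) without sites whose H3K4me3 value repeats that of another. With 1 library per assay no test between conditions or animals could be made and no p-value is given. Intervals of medians and shares cover the variation among sites only, and an interval of a difference is that of the isolated median set against the median of the other sites.

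H3K4me3, the mark that PRDM9 leaves before any break, had a median of 13.4 (11.9 to 15.7) at isolated CAST sites and 13.2 (12.9 to 13.6) at other CAST sites. The log2 difference was 0.02 (-0.16 to 0.25), and it was lower at isolated sites on 10 of 19 autosomes. At HUM sites the medians were 9.64 (8.88 to 11.1) and 10.5, a log2 difference of -0.13 (-0.25 to 0.08). Both intervals include 0. DMC1 for the amount of H3K4me3 was therefore the lower quantity at isolated sites: the log2 ratio of DMC1 to H3K4me3 was lower by 0.21 at CAST sites (difference -0.21, -0.29 to -0.10, on 16 of 19 autosomes) and by 0.19 at HUM sites (difference -0.19, -0.44 to -0.04, on 12 of 19). The reads behind the H3K4me3 values are credited in the file headers to Li and colleagues, and whether they are those of the library of this series is not stated. At 482 of the 696 isolated sites (69.3%) the H3K4me3 value was also held by another site of the table, against 62.9% of other sites, and without such sites (214 isolated sites left) the ratio of both variants together differed by -0.36 in place of -0.15.

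Strong DMC1 sites were fewer among isolated sites. Of isolated CAST sites 8.62% (6.23% to 11.5%) were among the strongest 10% of all autosomal CAST and HUM sites by DMC1, against 13.9% of other CAST sites. Of isolated HUM sites 5 of 232, or 2.16% (0.703% to 4.96%), were that strong, against 5.11% of other HUM sites. Towards the low end, 39.2% of isolated HUM sites (32.9% to 45.8%) were among the weakest 25%, against 29.7% of other HUM sites. In H3K4me3 the isolated CAST sites were among the strongest 10% in 14.0% of cases (11.0% to 17.5%), against 11.9%, and the isolated HUM sites in 4.31% (2.09% to 7.78%), against 7.47%. At the 10th percentile isolated and other sites differed less in DMC1 than at the median, with log2 DMC1 of 4.09 against 4.23 for CAST and 3.95 against 4.01 for HUM. Log2 H3K4me3 was lower at isolated sites there, 1.82 against 1.99 for CAST and 1.81 against 2.01 for HUM. The 10th percentile of the log2 ratio was 1.01 against 1.32 for CAST and 0.717 against 1.03 for HUM. All isolated sites together carried 2.62% of the summed DMC1 signal and 3.11% of the summed H3K4me3 of autosomal CAST and HUM sites, beside their 3.21% of the sites.

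Isolation also went with the PRDM9 variant. HUM sites made up 33.3% of isolated sites (29.8% to 37.0%) but 43.2% of other sites (42.5% to 43.9%). By spacing, it was 44.2% where the nearer neighbour was closer than 20 kb, 44.5% at 20 to 50 kb, 41.4% at 50 to 100 kb, 38.0% at 100 to 200 kb and 33.3% at isolated sites, and so it was lower at each step past 50 kb. Because 2 adjacent sites define one another's spacing, the classes are not independent of each other.

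The DMC1 to H3K4me3 ratio followed the same spacing classes. At CAST sites its median log2 value was 2.84 under 20 kb, 2.80 at 20 to 50 kb, 2.75 at 50 to 100 kb, 2.69 at 100 to 200 kb and 2.59 at isolated sites. At HUM sites it was 2.49, 2.44, 2.39, 2.31 and 2.25 in the same classes. Each step was downward in both variants, with the isolated sites at the end of the order. Median H3K4me3 had no such slope, with 12.9, 13.7, 13.3, 12.9 and 13.4 at CAST sites. At HUM sites it was 10.6, 10.4, 10.9, 10.01 and 9.64, lowest in the widest class. Site by site the relation was weak, with a Spearman correlation between the ratio and the distance of the nearer neighbour of -0.05 among other CAST sites, -0.08 among isolated CAST sites, -0.05 among other HUM sites and -0.0050 among isolated HUM sites.

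**Figure D1:**
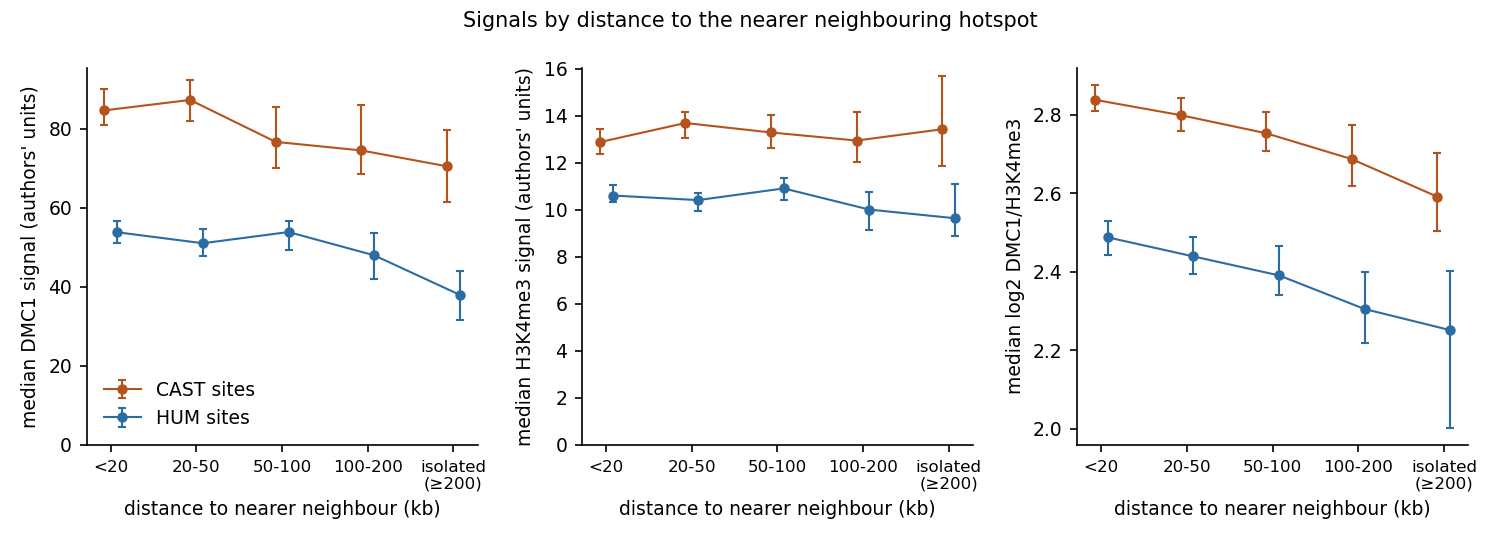
Median DMC1 signal, median H3K4me3 signal (both in the authors' units) and median log2 ratio of the marks against the distance to the nearer neighbouring site in kb, for CAST sites (orange) and HUM sites (blue). Points are medians and bars their 95% intervals over sites; the ratio, whose axis does not start at 0, falls from 2.84 to 2.59 at CAST sites and from 2.49 to 2.25 at HUM sites, while H3K4me3 stays between 12.9 and 13.7 at CAST sites.

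Within the isolated sites, the 62 whose nearer neighbour was 500 kb away or more had a median log2 ratio of 2.20 (1.54 to 2.54), against 2.50 (2.35 to 2.61) at the 419 sites of 200 to 300 kb. Their median DMC1 was 45.02 (28.1 to 81.4) and their H3K4me3 13.5, against 55.6 and 11.8. The intervals overlap, so the spacing beyond the threshold could not be told to matter at this number of sites.

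Isolated sites had fewer genes around them. The log2 ratio was higher at sites with few genes nearby than at sites with more, though without a steady rise. With at most 2 protein-coding genes within 500 kb its median was 2.61 at isolated and 2.73 at other sites. With 3 or more it was 2.34 and 2.63. Site by site this was weak, with Spearman correlations of the ratio and the gene number of -0.086 among isolated and -0.083 among other sites. Isolated sites had a median log2 ratio of 2.54 with no gene within 500 kb, 2.70 with 1 to 2, 2.40 with 3 to 9 and 2.23 with 10 or more. With no gene there it was 2.62 at isolated CAST and 2.03 at isolated HUM sites, against 2.47 and 2.28 with 3 to 9. Among sites with at most 2 protein-coding genes within 500 kb, the isolated minus other difference in the log2 ratio was -0.12 (-0.25 to 0.01, 389 isolated and 3068 other sites) and that in log2 DMC1 was -0.07 (-0.43 to 0.15). Where 3 or more genes lay within 500 kb, the ratio differed by -0.30 (-0.40 to -0.13). Between genes it differed by -0.09 (-0.21 to -0.01), and inside genes by -0.31 (-0.45 to -0.07). In the last 20 Mb before the last site of a chromosome, where 82 isolated sites lay, the difference was 0.06 (-0.16 to 0.36). With at most 2 genes within 500 kb, DMC1 at HUM sites had medians of 40.3 and 51.1 and a log2 difference of -0.34 (-0.87 to -0.09), and at CAST sites of 71.8 and 78.1 and a difference of -0.12 (-0.35 to 0.14). These differences between strata were not tested.

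Across isolated sites DMC1 followed H3K4me3, but less closely at HUM sites. The Spearman correlation was 0.737 over the 464 isolated CAST sites and 0.742 over other CAST sites, and 0.489 over the 232 isolated HUM sites against 0.677 over other HUM sites. These correlations describe sites that share both libraries. H3K4me3 values also held by another site were most common at isolated HUM sites, at 77.6%. They made up 65.3% at other HUM, 65.1% at isolated CAST and 61.1% at other CAST sites. Whether this bears on the correlations was not tested. The 3 highest ratios among the stronger isolated sites (those with DMC1 at or above the isolated median) all belonged to HUM.

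**Figure D2:**
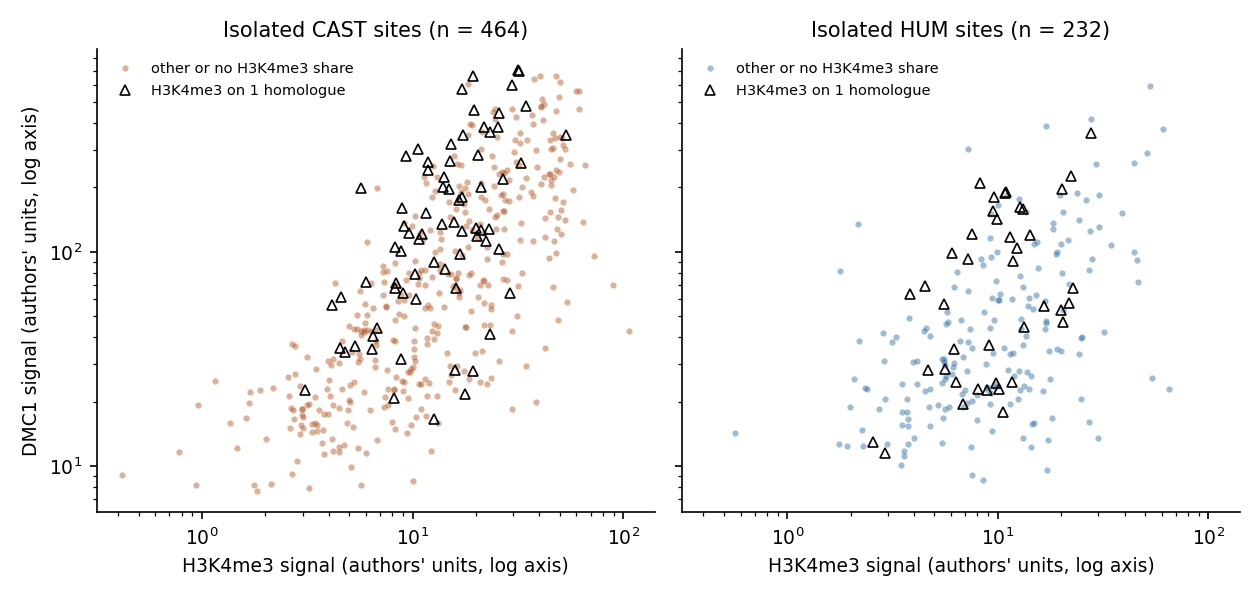
DMC1 signal against H3K4me3 signal (authors' units, both axes logarithmic) for the 464 isolated CAST sites and the 232 isolated HUM sites. Each point is a site, and triangles are sites whose H3K4me3 was on 1 homologue (B6 share under 0.1 or over 0.9); DMC1 rises with H3K4me3 in both panels, with more scatter among HUM sites (Spearman 0.489 against 0.737).

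The first of those 3 lay in a gene desert of chromosome 18 at position 18457903, 1503 kb from Dsc3, which encodes a desmosomal cadherin. It had DMC1 135 on an H3K4me3 of 2.17, a ratio of 62.4, and a DMC1 B6 share of 0.0168. The second, at chromosome 16 position 86444350, lay 543 kb from Adamts5, which encodes a protease that cuts the proteoglycan aggrecan, with DMC1 81.3, H3K4me3 1.78 and a DMC1 B6 share of 0.00980. The third was inside Robo2, the gene of an axon guidance receptor for SLIT proteins, at chromosome 16 position 74093826, with DMC1 302, H3K4me3 7.23 and a DMC1 B6 share of 0.00518. By their DMC1 shares all 3 were broken almost only on the CAST homologue, while their H3K4me3 B6 shares were 0.2, 0.333 and 0.136. Their H3K4me3 was under the isolated median of 11.8, which picking the highest ratios favours. At the other end, picked for low ratios, stood CAST sites with much H3K4me3 and modest DMC1. The site inside Ccdc34 (chromosome 2, 110174301) had DMC1 69.9 on H3K4me3 89.9. The site 243 kb from Zfp804a (chromosome 2, 82502729) had 58.5 on 54.1. Breaks in both were found on either homologue (B6 share of DMC1 0.412 and 0.421).

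The strongest isolated CAST sites reached DMC1 signals of 661 to 704. The highest was at chromosome 13 position 27045841, 11.7 kb from Prl, the prolactin gene, with DMC1 704, H3K4me3 31.5 and a DMC1 B6 share of 0.986. After the site beside the start of I830077J02Rik came one 85.4 kb from Pcdh7, which encodes a protocadherin, a cell adhesion protein (chromosome 5, 57630788; DMC1 666, H3K4me3 48.0). It was used on both homologues, with a share of 0.541. The fourth lay 93.4 kb from Fbxl4, a nuclear gene for a mitochondrial protein (chromosome 4, 22264134; DMC1 665), with a share of 0.989. The fifth was 566 kb from Gm40892, with no protein-coding gene within 500 kb (chromosome 12, 93461128; DMC1 661, share 0.783), and its nearer neighbour was 626 kb away. Of these 5, 3 were thus nearly confined to the B6 homologue.

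The strongest isolated HUM sites were weaker, with DMC1 of 358 to 598. The first lay inside Lmbrd2 (chromosome 15, 9152441), overlapped a PRDM9-independent peak and had DMC1 598, H3K4me3 52.9 and a DMC1 B6 share of 0.486. The next was 266 kb from Spock3, which encodes an extracellular proteoglycan (chromosome 8, 62685315; DMC1 419, share 0.352). The third lay 1319 kb from Trim52 (chromosome 14, 107455245; DMC1 388) and was almost wholly on the B6 homologue (0.994). The fourth lay 7.49 kb from Det1 (chromosome 7, 78855013; DMC1 374, share 0.422). The fifth was inside Thrb, the gene of a thyroid hormone receptor (chromosome 14, 17663705; DMC1 358), and was nearly all on the CAST homologue (0.0173). At the lower end of DMC1 stood CAST sites 861 kb from Slc39a10, a zinc transporter gene (chromosome 1, 47786745; DMC1 7.63), and 226 kb from Fzd8, a Wnt receptor gene (chromosome 18, 8986816; DMC1 7.95), and HUM sites inside Gm26650 (chromosome 14, 4754929; DMC1 8.63) and 147 kb from Slc7a12 (chromosome 3, 14334019; DMC1 9.13).

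The farthest isolated site was a CAST site at chromosome 2 position 99455788, whose nearer neighbour was 1511 kb and whose nearest protein-coding gene, Lrrc4c, was 1824 kb away. It had DMC1 79.7 on an H3K4me3 of 33.2. The next by distance was a HUM site 1.89 kb from the olfactory receptor gene Olfr1205 (chromosome 2, 88833928), with 45 protein-coding genes within 500 kb and its nearer neighbour at 1306 kb. Its DMC1 was 12.3 and its H3K4me3 7.43. It was followed by sites near Prmt6, an arginine methyltransferase gene (chromosome 3, 111376036; 1131 kb from its neighbour, DMC1 27.4), near Gm8104 (chromosome 14, 43124062; 1016 kb, DMC1 55.7) and inside Tmtc4 (chromosome 14, 122980394; 997 kb, DMC1 158). Isolation therefore occurred both in gene deserts and inside a crowded receptor cluster. At the threshold itself, sites just inside were in Thsd7a (nearer neighbour 200.03 kb; DMC1 202, H3K4me3 21.2), near Gpr141b (200.2 kb; 14.2 and 2.91) and in Magi1 (200.6 kb; 172 and 14.9). Just outside were sites near Prl2c5 (199.99 kb; 137 and 41.0), near Gm38564 (199.9 kb; 19.04 and 7.94) and near Rbm11 (199.9 kb; 25.03 and 5.99).

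Most isolated sites lay between genes. Of the 696, 170 (24.4%, 21.3% to 27.8%) were inside a protein-coding gene, against 55.4% of other sites (54.8% to 56.1%). For 153 (22.0%, 18.96% to 25.2%) no protein-coding gene lay within 500 kb, against 2.36% of other sites. The median number of genes within 500 kb was 2, against 8. For sites between genes, the median distance to the nearest gene was 233 kb, against 41.3 kb. The share inside genes fell along the spacing classes from 60.4% under 20 kb through 56.0%, 50.4% and 41.6% to 24.4%, and among isolated sites of 500 kb or more 3 of 62 (4.84%, 1.01% to 13.5%) were in a gene. Isolated sites lay within 2 kb of an annotated gene start in 10 of 676 cases (1.48%, 0.712% to 2.70%), against 4.45% of other sites. Starts missing from the annotation could not be counted. They overlapped a PRDM9-independent H3K4me3 peak in 22 cases (3.16%, 1.99% to 4.75%), against 7.72%. Such peaks mark active promoters and similar elements.

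**Figure D3:**
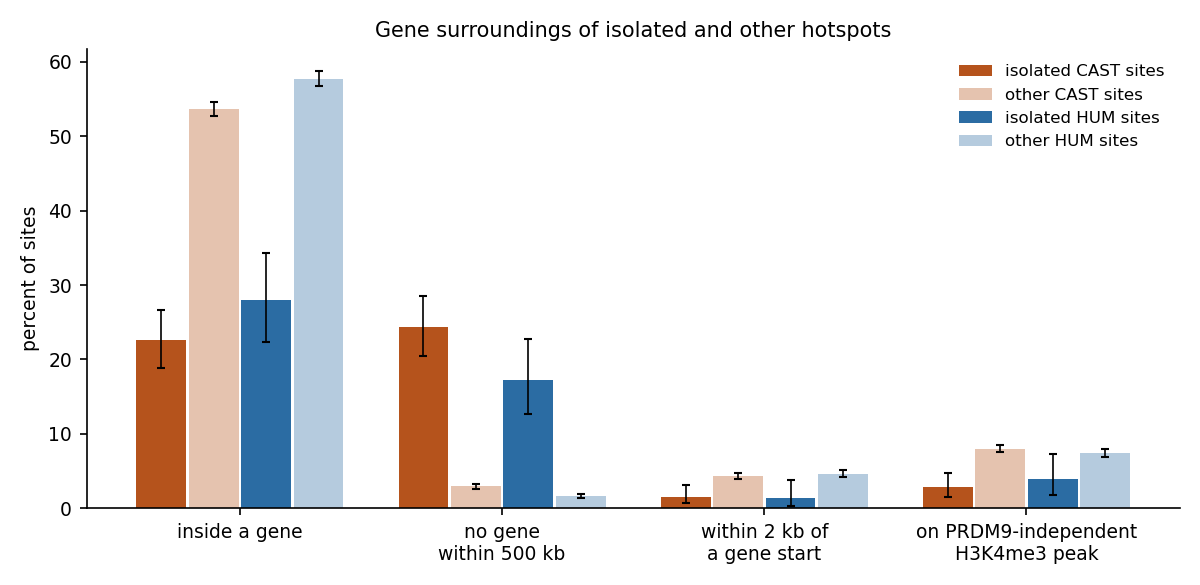
Percent of isolated (dark) and other (light) CAST sites (orange) and HUM sites (blue) that lie inside a protein-coding gene, have none within 500 kb, lie within 2 kb of an annotated gene start or overlap a PRDM9-independent H3K4me3 peak. Bars start at 0 and carry exact 95% intervals over sites; isolated sites are lower in all groups but that without a gene within 500 kb, where they stand at 24.4% (CAST) and 17.2% (HUM) against 2.92% and 1.61%.

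The genes that did hold isolated sites were long. Their median length, counted once per site, was 299 kb (164 to 381), against 116 kb (113 to 120) for other sites inside genes. The 170 sites fell in 158 genes, and 11 genes held more than 1. Lrrc4c, which encodes a synaptic adhesion protein of 1314 kb gene length, held 3 isolated sites of its 4 sites in all, with DMC1 of 26.2 to 41.7. Ctnna3, an alpha-catenin gene of 1574 kb, held 2 isolated sites of 13, with DMC1 217 and 363. Thrb (2 of 2; 92.6 and 358), Robo2 (2 of 10; 224 and 302), Grik2, a kainate receptor gene (2 of 2; 14.5 and 108), and Fhit, at a fragile site (2 of 11; 54.7 and 158), also held 2 each. So did Fam172a, Lsamp, Marchf1, Mgat4c and Sntg1. Whether a site inside a gene was in an exon or an intron was not analysed here.

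Adhesion genes were often the holding or nearest gene of isolated sites. A nearest gene could be far away, as was Tenm2 at 1606 kb from its site. Of 55 listed genes of neuronal adhesion and guidance, 31 held or were nearest to an isolated site, and 52 isolated sites (7.47%, 5.63% to 9.68%) belonged to them, against 2.37% of other sites. Inside these genes lay 20 isolated sites, 2.87% of all isolated sites (1.76% to 4.40%), and 331 other sites, 1.58% of all other sites. Isolated sites were less often inside any gene (170 of 696, against 11618 of 20957). These shares of all sites therefore do not compare the sites inside genes with each other. The strongest was in Ctnna3 (chromosome 10, 64818006; CAST, DMC1 363, B6 share 0.994). Classical cadherins, the calcium-dependent adhesion proteins of cell junctions, had 18 isolated sites in or nearest to them (2.59%, 1.54% to 4.06%), against 0.367% of other sites, and only 1 of the 18 was inside such a gene. That was a HUM site in Cdh18 (chromosome 15, 23300543; DMC1 49.3). The others included 3 with Cdh20 as the nearest gene and 2 each with Cdh6, Cdh8, Cdh9 and Cdh10. Even the closest of these lay 759 kb from Cdh20, 676 kb from Cdh6, 851 kb from Cdh8, 1106 kb from Cdh9 and 239 kb from Cdh10. Protocadherins had 17 (2.44%, 1.43% to 3.88%), against 0.2004%, spread over 7 genes: 4 at Pcdh9, 3 each at Pcdh17 and Pcdh20, 2 each at Pcdh7, Pcdh10 and Pcdh18, and 1 in Pcdh15 (chromosome 10, 73750573; DMC1 359, H3K4me3 46.4). No test of enrichment was made.

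Chemosensory receptor clusters, tandem arrays of genes expressed in the nose, also held a larger part of the isolated than of the other sites. Olfactory receptor genes were the holding or nearest gene of 12 isolated sites (1.72%, 0.894% to 2.99%), against 0.305% of other sites, each at another gene, with 1 site inside a gene, Olfr1280 (chromosome 2, 111318557; CAST, DMC1 241, H3K4me3 47.8). The highest DMC1 of these 12, 381, was 21.7 kb from Olfr77, on the CAST homologue (B6 share 0.0115), a site picked after its value was seen. Vomeronasal receptor genes, which detect pheromones, had 13 (1.87%, 0.998% to 3.17%), against 0.105%. Of these 13, 2 were inside a gene, in Vmn2r105 (chromosome 17, 20215996; HUM, DMC1 53.6, B6 share 0.988) and Vmn2r63 (DMC1 22.5). Sequence is repeated among such genes, and the sources used here do not give how reads with several matches were treated. A DMC1 B6 share was given for 91.5% of isolated sites and 93.3% of other sites.

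The remaining lists showed no such excess. Developmental transcription regulators, whose genes often border deserts, had 10 isolated sites (1.44%, 0.691% to 2.63%), against 2.06%. The only one inside a gene of the list was in Foxp2 (chromosome 6, 15305450; DMC1 12.9). Potassium channel genes had 7 (1.01%, 0.405% to 2.06%), against 0.826%. Of these the site with the gene around it was in Kcnh1 (chromosome 1, 192196536; HUM, DMC1 99.9, H3K4me3 44.5). Ribosomal protein genes had 2 (0.287%, against 0.253%), near Rpl10l and Rps29 (chromosome 12, 68547578; DMC1 43.5).

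Genes that act in meiotic break formation and repair themselves held 2 isolated sites (0.287%, 0.0348% to 1.03%), against 0.105% of other sites. A CAST site lay inside Gm960, also named Top6bl, which encodes the partner of SPO11 in the break-making complex (chromosome 19, 4629552). It had DMC1 199 on an H3K4me3 of 5.67, a ratio of 35.2, and a B6 share of 0.985. A HUM site lay inside Mei4, whose product is also needed to make breaks (chromosome 9, 81891378), with DMC1 191, H3K4me3 11.0 and a B6 share of 0.0116. Both signals were far above the isolated medians of 70.5 and 38.0, and each came from 1 homologue, B6 in the former and CAST in the latter. No isolated site was in or nearest to a gene of the chromosome axis or synaptonemal complex, the protein scaffold that holds homologues together (0 of 696, which allows a share of up to 0.529%), where 6 other sites were (0.0286%).

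Isolated sites were unevenly spread over the autosomes. They made up 5.52% of CAST and HUM sites on chromosome 14 (54 sites, 4.17% to 7.14%), 4.49% on chromosome 1 (69 sites), 4.42% on chromosome 15 and 4.11% on chromosome 12, but 1.24% on chromosome 11 (16 sites, 0.713% to 2.01%). Chromosome 11 has 13.5 protein-coding genes per Mb and chromosome 14 has 7.05. Over the 19 autosomes the share fell as gene density rose, with a Spearman correlation of -0.516 and a Pearson correlation of -0.494, given as a description. Chromosome 14 also had nearly as many isolated HUM sites as CAST sites (26 and 28), whereas chromosome 5 had 7 and 26. Isolated sites lay farther from the distal end, at a median of 70.5 Mb (65.6 to 74.4) before the last site of the chromosome against 56.8 Mb for other sites. Mouse chromosomes have the centromere at the proximal end, and male crossovers are known to be frequent towards the distal one.

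**Figure D4:**
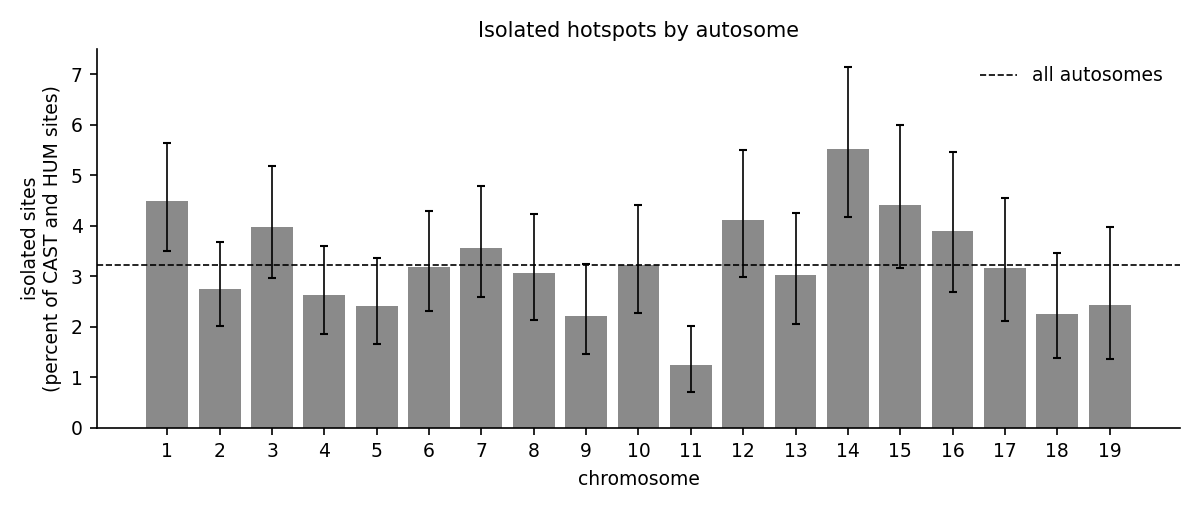
Isolated sites as percent of all CAST and HUM sites on each autosome, with exact 95% intervals over sites. The dashed line is the value over all autosomes, 3.21%; chromosome 14 stands above it at 5.52% and chromosome 11 below it at 1.24%.

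A neighbour of an isolated site has a long gap on that side already, so it qualifies more easily than a site at large, and the counts that follow describe the rule. The 696 had 1298 distinct neighbours, of which 385 were themselves isolated sites, 779 were CAST, 394 HUM, 108 UNK and 17 KO, classes whose last pair the file headers do not define. The 696 formed 461 runs of consecutive sites, and 150 of these runs had 2 or more members. The longest had 7. On chromosome 1 such a run spanned 2.76 Mb from 145960901 to 148718321 between Brinp3 and Pla2g4a, with DMC1 of 17.9 to 307. On chromosome 16 another spanned 2.44 Mb from 81346713 to 83784813 around Ncam2, a neural cell adhesion gene, with DMC1 of 22.1 to 221. Each of these 2 stretches held 5 CAST and 2 HUM sites, so both variants used the same sparse region.

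The use of the homologues at isolated CAST sites was that of CAST sites at large. Of 429 isolated CAST sites with a DMC1 share, 92 (21.4%, 17.7% to 25.6%) had one over 0.9, where 21.3% of all autosomal CAST sites did, and 47 (11.0%, 8.16% to 14.3%) had one under 0.1, where 10.2% did. Isolated HUM sites had more of their one-sided sites on the CAST homologue, as did HUM sites at large. Of 208, 50 (24.0%, 18.4% to 30.4%) had a DMC1 share under 0.1, where 18.8% of all autosomal HUM sites did, and 37 (17.8%, 12.8% to 23.7%) had one over 0.9, where 17.2% did. These 4 background values all lie inside the intervals. Counting either homologue, DMC1 was one-sided in this way at 226 of 637 isolated sites (35.5%, 31.8% to 39.3%), beside 33.4% of all. Over both variants a DMC1 share over 0.9 was found at 129 isolated sites (20.3%, beside 19.5%) and one under 0.1 at 97 (15.2%, beside 13.8%). Isolated HUM sites were one-sided at 87 of 208 (41.8%, 35.04% to 48.8%), beside 36%, and isolated CAST sites at 139 of 429 (32.4%, 28.0% to 37.1%), beside 31.4%.

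In H3K4me3 the isolated sites were more often one-sided over both variants together and at HUM sites. At CAST sites the interval includes the background. A share under 0.1 or over 0.9, called one-homologue below, was found at 114 of 637 (17.9%, 14.996% to 21.1%), where 14.2% of all autosomal CAST and HUM sites had one. At HUM sites it was 41 of 209 (19.6%, 14.5% to 25.7%), where 13.8% had one, and at CAST sites 73 of 428 (17.1%, 13.6% to 21.0%), where 14.5% had one. The CAST homologue alone was marked at 21 isolated HUM sites (10.0%, 6.33% to 14.95%), beside 6.58%, and at 23 isolated CAST sites (5.37%, 3.44% to 7.95%), beside 3.6%. B6 alone was marked at 20 isolated HUM sites (9.57%, 5.94% to 14.4%), beside 7.24%, and at 50 isolated CAST sites (11.7%, 8.80% to 15.1%), beside 10.9%. Each of these intervals by variant and homologue includes its background. Over both variants these counts were 70 for B6 (10.99%, beside 9.32%) and 44 for CAST (6.91%, beside 4.88%). A balanced H3K4me3 share of 0.3 to 0.7 was found at 48.3% of isolated HUM sites (41.4% to 55.3%) and at 59.2% of other HUM sites. The number of reads behind a share is unknown.

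The 2 marks pointed to the same homologue wherever both were one-sided. Of 619 isolated sites with both shares, 107 (17.3%, 14.4% to 20.5%) were one-homologue in both marks on the same homologue. None had opposite homologues, which allows a share of up to 0.594%, and 2 of 19202 other sites did. At 25 isolated sites (4.04%, 2.63% to 5.90%) DMC1 was on 1 homologue although H3K4me3 was balanced, against 3.48% of other sites. Where H3K4me3 was split evenly (share 0.45 to 0.55), DMC1 had a median share of 0.452 (0.417 to 0.476) over 157 isolated sites and of 0.444 over other sites.

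Single sites show how complete the one-sided use could be. Among the stronger isolated sites, 3 CAST sites had a DMC1 B6 share of 1. They lay 375 kb from Mgat4c, a glycosyltransferase gene (chromosome 10, 101306125; DMC1 136, H3K4me3 share 0.786), 474 kb from Kif20b, a kinesin gene (chromosome 19, 35449281; DMC1 123, H3K4me3 share 0.865), and 157 kb from Gulp1, a gene for an adaptor in the engulfment of dying cells (chromosome 1, 44954191; DMC1 83.5, H3K4me3 share 0.958). A DMC1 B6 share of 0 was found at a HUM site 158 kb from Amy2b, an amylase gene (chromosome 3, 112989719; DMC1 158, H3K4me3 share 0.0526), and at a CAST site 996 kb from Tenm4, a teneurin gene (chromosome 7, 95175441; DMC1 128, H3K4me3 share 0.0580). In all 5 the H3K4me3 share lay on the same side of 0.5. No share can be more extreme than 0 or 1, so how far it fell short of that of DMC1 carries no comparison of the marks.

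DMC1 per H3K4me3 was higher at isolated sites marked on 1 homologue than at those marked on both, as it was at other sites. The 114 one-homologue isolated sites had a median DMC1 of 109 (79.1 to 128) and H3K4me3 of 11.9, and the 368 marked on both (share 0.3 to 0.7) had 62.8 (51.2 to 72.5) and 14.95. The log2 ratio was higher by 0.86 (0.61 to 1.19), or 1.82-fold, where other sites differed by 1.14 (1.08 to 1.19), or 2.20-fold. At isolated CAST sites marked on B6 alone (50 sites) the median DMC1 was 145 (119 to 202), against 271 (253 to 296) at other such sites, and H3K4me3 was 15.4 (11.6 to 19.4) against 18.4. At isolated CAST sites marked on both homologues the median DMC1 was 73.1 (62.7 to 89.4), close to 73.8 at other such sites, while H3K4me3 was 16.5 against 14.5. The gap in DMC1 signal between isolated and other CAST sites was thus larger among the B6-only sites, whereas the log2 ratio was lower in both classes, by 0.47 and by 0.20 (-0.47 and -0.20 for isolated minus other). Whether these differences differ was not tested.

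At HUM sites the 2 directions gave different values on few sites. The 20 isolated HUM sites marked on B6 alone had a log2 ratio 0.25 above that of sites marked on both (-0.59 to 1.36), where other HUM sites gave 0.70. The 21 marked on CAST alone were higher by 1.37 (0.01 to 1.84), where other HUM sites gave 1.16. Both intervals include the value of the other sites.

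**Figure D5:**
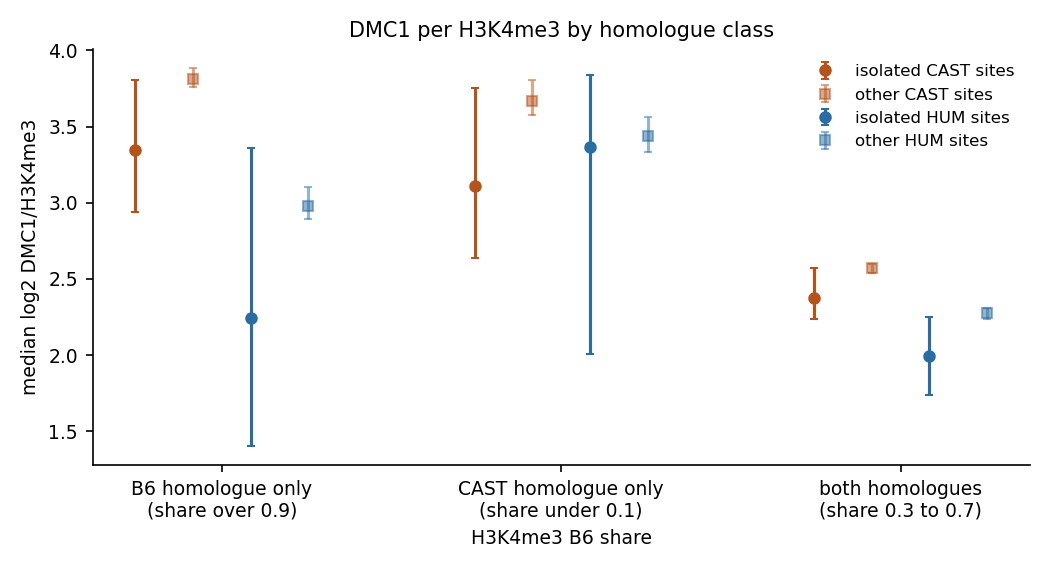
Median log2 ratio of DMC1 to H3K4me3 (authors' units, axis not starting at 0) for isolated and other CAST sites (orange) and HUM sites (blue), by the homologue that carried H3K4me3. Bars are 95% intervals over sites; isolated CAST sites lie below other CAST sites in each class, and the isolated HUM classes of 20 and 21 sites have wide intervals.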

How the data were processed

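DMC1 and H3K4me3 values came from 1 deposited table with 1 line per DMC1 peak centre (mm10). The submitters' processing notes name BWA as the aligner (0.7.15 for H3K4me3; the sources used here give none for DMC1). Per the file headers, DMC1 signal is the heat from the peak caller of Davies and colleagues, H3K4me3 signal is an enrichment by the method of Hinch and colleagues, and a B6 fraction is the part of a signal on the B6 homologue. The allele and the overlap with PRDM9-independent H3K4me3 are also the authors' calls. How values were scaled to depth, and the reads behind them, are not stated, so the depth, and with it the counting error of a single site, is unknown.

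From these values, neighbour distances, log2 signals without a pseudocount and their ratio were computed with Python 3.11.15, pandas 2.3.3 and scipy 1.17.1. Medians have binomial order-statistic 95% intervals and shares exact Clopper-Pearson 95% intervals. Both treat sites as independent and cover neither animals nor libraries. The scripts were tested on simulated data. Genes came from RefSeq on GRCm38.p6 (21627 protein-coding genes, and 32619 gene starts, with those of chromosome 18 not analysed here). The starts of some protein-coding genes on other chromosomes were missing too. Sequence at the sites was not analysed here. The sites and the 10 gene lists were chosen with earlier results of these data known. Sites were named by rule: for each allele the 5 strongest and 2 weakest in DMC1, the 5 with the farthest neighbours, the 3 highest and 3 lowest ratios and B6 shares among those with DMC1 at or above the median, the 3 on each side of the threshold, and the strongest inside each gene list. Sites near gene starts, genes with several isolated sites, runs and the site in Mei4 were named in addition, after their values were seen. One site that the rule names is not reported here.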

Additional observations from a re-analysis of the deposited data

How the results depend on the processing

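Of 73 alternative values, 61 lay inside the interval over sites of the value as reported and 12 outside it. One alternative changed only the comparison, to other sites with a nearer neighbour under 50 kb away. The shares of isolated sites could not change there, and they are counted among the 61. The difference in log2 H3K4me3, whose interval includes 0, turned from -0.01 to positive values of 0.0022 to 0.12 in 7 of 12 alternatives; the DMC1 and ratio differences turned in 0. The isolated minus other difference in log2 DMC1 stayed between -0.47 and -0.07 over 12 alternatives, with an interval that includes 0 in 4 of them (150 kb, 300 kb, without repeated H3K4me3 values, and few genes nearby), and that in the log2 ratio between -0.36 and -0.11 over 13, with -0.24 within bins of equal H3K4me3. Without sites whose H3K4me3 value repeats that of another, the ratio differed by -0.36. HUM sites then made up 24.3% of isolated and 40.5% of other sites. DMC1 was one-sided at 27.3% of isolated and 28.5% of other sites, and 6.07% and 13.1% overlapped a PRDM9-independent peak. With HUM sites only, DMC1 was one-sided at 41.8% of isolated and 35.8% of other sites, and 28.0% and 57.8% lay inside a gene. With limits of 0.05 and 0.95, DMC1 was one-sided at 24.0% of isolated and 24.7% of other sites. As reported, it was one-sided at 35.5% of isolated and 33.3% of other sites. That order turned with these limits and without repeated H3K4me3 values. By the H3K4me3 share, 17.9% of isolated and 14.1% of other sites were one-sided. The share inside a gene was 30.6%, against 55.9% of other sites, at a distance of 150 kb. At 300 kb it was 15.9% against 54.9%, and 1.81% against 7.65% overlapped a PRDM9-independent peak. Among sites with at most 2 protein-coding genes within 500 kb the log2 H3K4me3 difference was 0.12. This choice and the one that left out the last 20 Mb of each chromosome were made after seeing the data. The cause of these movements was not tested. No paired analysis was possible because each assay had 1 library and the labels carry no replicate numbers. Depth limits every single value, since the reads behind it are unknown.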

Other observations

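Sites of classes that the file headers do not define also stood alone. With the same spacing there were 65 autosomal UNK sites, 3.39% of the UNK sites there, and 9 KO sites. At the isolated UNK sites DMC1 was 15.5 and H3K4me3 5.18 in the median, 12 of them lay inside a protein-coding gene and 11 overlapped a PRDM9-independent H3K4me3 peak. The same values over all UNK sites are not given here, so no comparison is made.

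On the X, which is outside the rule, 67 of 860 CAST and HUM sites (7.79%) had the same spacing. Their median DMC1 was 72.0 and their median H3K4me3 13.4, against 79.4 and 11.2 at the remaining 793 X sites. The median log2 ratio was 2.44 against 3.06, a difference of -0.62 with no replicate check.

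Isolated sites came within 10 kb of a microRNA gene in 3 cases. The number of other sites that did so is not given here, so the count cannot be called high or low. A HUM site lay 2.64 kb from Mir6975 (DMC1 94.6, H3K4me3 9.24), the CAST site inside Gm960 lay 5.60 kb from Mir6986, and a HUM site lay 7.15 kb from Mir344-2 (DMC1 131, H3K4me3 30.4). Other runs of isolated sites had 6 members. On chromosome 1, from 44177209 to 45934561, such a run passed Gulp1 and the collagen genes Col3a1 and Col5a2, with DMC1 of 15.2 to 281. On chromosome 10, from 102980134 to 104656276, none of the 6 sites of a run beside Alx1, a homeobox gene of craniofacial development, was inside a gene, and DMC1 was 15.6 to 149.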
